A study of Homo sapiens with 12 samples.

Results

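The genes followed were 9 of the amyloid precursor protein pathway: the 3 members of the APP family (APP, APLP1 and APLP2), the beta-secretase BACE1, the alpha-secretase ADAM10 and the gamma-secretase subunits PSEN2, NCSTN, APH1A and PSENEN. They were taken by gene symbol from a table of 59653 genes, all 9 were found, and all 9 were among the 24671 genes kept after a filter on low counts. The libraries are total RNA of human neurons made from iPS cells (induced pluripotent stem cells) of IMR-90, a fibroblast line. In 6 libraries the cells had been given a negative control siRNA (siNC), and in the other 6 an siRNA against ZCCHC17 (siZCC). Titles also bear the abbreviation NPC, which no label explains, and the other labels call the cells neurons.

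APP is a membrane protein that is cut in steps. ADAM10 cuts within the amyloid-beta sequence and so prevents its release, BACE1 cuts at its start, and gamma-secretase then cuts the remaining stub inside the membrane, which after BACE1 releases amyloid-beta. Gamma-secretase is a complex of a presenilin, which holds the catalytic site, with nicastrin (NCSTN), an APH1 protein and PEN-2 (PSENEN), and it also cuts the Notch receptors. Fewer cells of a type and less RNA per cell cannot be told apart in such bulk libraries.

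The siRNA target was much lower in the siZCC libraries. ZCCHC17 went from 56.9 ± 2.49 CPM, the counts of a gene scaled to a common library size, to 9.999 ± 0.507 CPM (SD, n = 6 each). Library totals ran from 76115083 to 120023356 counts, and the members rested on 1223 to 173423 counts per library. All 20 neuron markers listed were kept, with a summed level of 4940.3 to 5511 CPM (siNC) and 4466 to 5129.7 CPM (siZCC). The 14 progenitor markers summed to 6635 to 7065 CPM in siNC and 6681 to 7246 CPM in siZCC, so the cultures also held transcripts of progenitors. Of 12 microglia markers 8 were too low to be kept, and the other 4 summed to at most 2.89 CPM in any library.

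Of the 9 members, 1 was higher in siZCC, 0 were lower and 8 did not pass the test (edgeR's quasi-likelihood test, adjusted p under 0.05 after Benjamini-Hochberg adjustment over all genes kept). That is 11.1% of the members, against 22.2% of all genes kept and 32.1% of the 9605 genes at least as abundant as PSEN2, the least abundant member. The gene that rose was APH1A, by 14.1%. For the other 8 the 95% intervals of the change, each taken on its own, all lay between -8.31% and 7.44%. They bound the change in scaled counts between these samples and do not show that there was none. The median log2 fold change of the 9 was 0.02, beside -0.0016 over all genes kept, and the median size without sign was 0.02 beside 0.11.

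**Figure D1:**
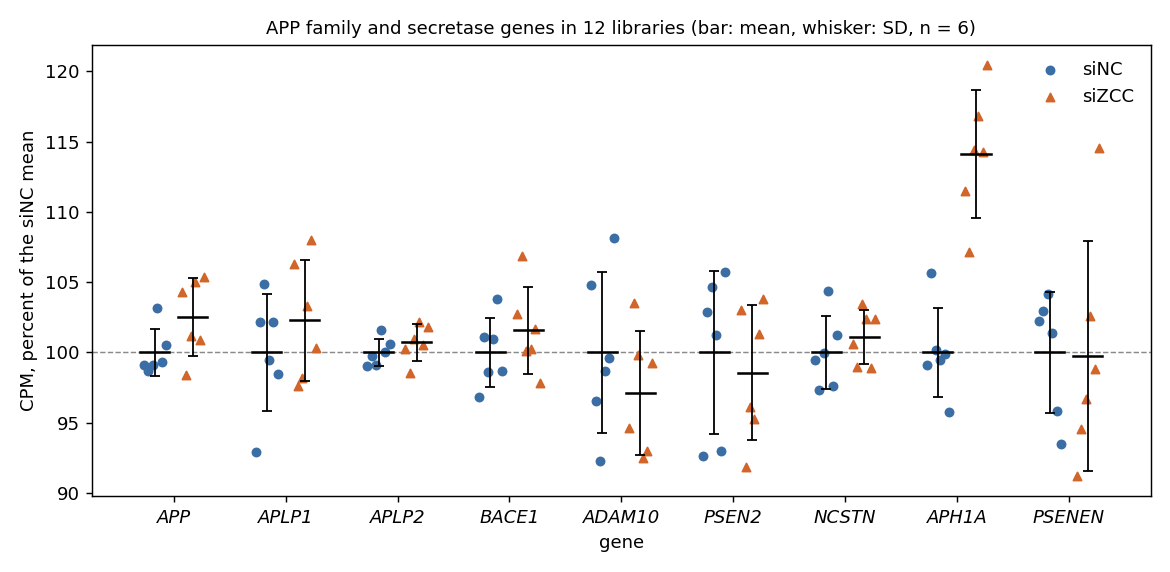
Level of each of the 9 genes in each library, as a percent of the mean of the 6 siNC libraries; circles are siNC, triangles siZCC, bars the mean and whiskers the SD (n = 6 each). The 6 APH1A values in siZCC lie above all 6 in siNC, and the groups overlap for the other 8 genes.

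Sequence before the gene start is shown for APH1A, the member that rose, and for BACE1 and PSENEN, which were not called but hold the same word of 14 letters. RefSeq (GRCh38.p14) gave a start for all 9 members, the first listed being used where it gives several, and the 250 bases before it are printed 5' to 3' on the strand of the gene. The GENCODE models used for positions below reach further upstream for APH1A and PSENEN, so those windows lie inside the GENCODE spans of these genes. Capitals mark the match to ACTACANNTCCCAG. BACE1 and PSENEN share 14 letters here, the longest word common to any pair of the 6 secretase genes, and APH1A differs from it at 2 letters, written N. The word resembles the SBS element, which the transcription factor ZNF143 is known to bind. APH1A lies on the minus strand at chr1:150269017-150269266, BACE1 on the minus strand at chr11:117316257-117316506 and PSENEN on the plus strand at chr19:35745401-35745650.
APH1A: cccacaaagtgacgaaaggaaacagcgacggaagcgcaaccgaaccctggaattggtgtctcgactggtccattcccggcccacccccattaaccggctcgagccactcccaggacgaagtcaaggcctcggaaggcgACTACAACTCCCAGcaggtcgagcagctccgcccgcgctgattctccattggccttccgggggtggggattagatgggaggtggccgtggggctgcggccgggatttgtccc
BACE1: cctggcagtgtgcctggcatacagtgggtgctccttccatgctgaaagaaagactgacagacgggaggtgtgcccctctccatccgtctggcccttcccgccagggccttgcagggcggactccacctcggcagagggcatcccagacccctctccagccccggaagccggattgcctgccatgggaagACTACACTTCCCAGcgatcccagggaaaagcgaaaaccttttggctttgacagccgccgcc
PSENEN: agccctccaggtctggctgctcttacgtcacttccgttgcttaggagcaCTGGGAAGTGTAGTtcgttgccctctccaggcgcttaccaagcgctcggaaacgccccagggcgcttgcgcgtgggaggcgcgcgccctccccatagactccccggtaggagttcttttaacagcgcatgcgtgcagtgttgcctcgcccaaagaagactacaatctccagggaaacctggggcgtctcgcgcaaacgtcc
The word is read on the strand of the gene in APH1A, from 112 to 99 bases before the start, and in BACE1, from 61 to 48 bases before it. In PSENEN it is read on the other strand, from 201 to 188 bases before the start. Both strands of 27305 promoters of the same length were searched, and 292 of them, or 1.07%, held the word, as did 3 of the 9 members. Since it was taken from these sequences, its presence in them is no finding; 1 of the 3 genes that hold it rose. The other 6 members differ from the shared word at 5 or 6 letters at the least. APLP1 and APLP2 share a longer repeat-like word of 16 letters, which is read on opposite strands in the 2 promoters. Shorter words were less selective. GGGCGG, the core of the SP1 site, was in 6 members and in 42.3% of promoters. CCGGAA, the core of an ETS site, was in BACE1, NCSTN and APH1A and in 14.8% of promoters. CCAAT was in APH1A alone of the members and in 33.0% of promoters, and TATAAA in APP alone and in 11.1%. None of the matches to these 4 short words in the 3 promoters printed overlaps the longer word. A match describes the sequence, not binding.

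The 3 substrates of the APP family were the most abundant members. APP (chromosome 21, 25880550 to 26171128, minus strand, GENCODE v29 on GRCh38) had a lowest, median and highest level of 1436, 1444 and 1501 CPM in siNC, and of 1431, 1495 and 1533 CPM in siZCC. In siZCC 3 of the 6 libraries lay above every siNC library, while siZCC replicate 2 was the lowest of all 12. The means were 1455 ± 24.5 and 1491 ± 40.7 CPM (SD, n = 6 each), a log2 fold change of 0.04 (SE 0.0248, adjusted p 0.332), with an interval of -1.13% to 6.30%. The exact permutation test over the 924 ways to divide the libraries (two-sided) gave p = 0.0909 for APP, or 0.224 when adjusted over all genes kept.

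APLP2 (chromosome 11, 130068147 to 130144811, plus strand), a homologue of APP without the amyloid-beta sequence that is expressed in most tissues, was the steadiest of the family. Its levels were 662, 667 and 679 CPM in siNC (lowest, median, highest) and 659, 673 and 683 CPM in siZCC. The groups overlapped, the log2 fold change was 0.01 (SE 0.0217, adjusted p 0.789), and the interval ran from -2.45% to 3.95%. APLP1 (chromosome 19, 35867899 to 35879791, plus strand), the homologue found mainly in neurons, stood at 417, 452 and 470.2 CPM in siNC and at 438, 457 and 484 CPM in siZCC. It varied more between replicates than the other 2 in siNC, and its log2 fold change of 0.03 (SE 0.0338, adjusted p 0.542) had an interval of -2.66% to 7.44%.

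The 2 sheddases that compete for APP did not pass the test. BACE1 (chromosome 11, 117285207 to 117316259, minus strand) was measured at 111, 114 and 119 CPM in siNC and at 112, 116 and 122 CPM in siZCC (lowest, median, highest). The groups overlapped over most of their range, with a log2 fold change of 0.02 (SE 0.0277, adjusted p 0.614) and an interval of -2.46% to 5.78%. Of the merged exons of BACE1, 26.0% are shared with BACE1-AS, a transcript of the other strand, and 17.2% with RNF214, also on the other strand. RNF214 stood at 40.8 ± 0.9997 and 42.9 ± 1.59 CPM (SD, n = 6 each; log2 fold change 0.08, SE 0.0302, adjusted p 0.0827). For RNF214, 5 of the 6 siZCC libraries lay above every siNC library. Its exact permutation test (two-sided) gave p = 0.00433, or 0.0328 adjusted over all genes kept. The level of BACE1-AS was 27.3 ± 1.02 against 26.3 ± 0.613 CPM in siZCC (SD, n = 6 each; log2 fold change -0.05, SE 0.0317, adjusted p 0.243). Whether the counting used strand is not stated, so reads of these genes in the shared exons cannot be told apart.

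ADAM10 (chromosome 15, 58588807 to 58749978, minus strand) stood at 90.6, 97.4 and 106 CPM in siNC and at 90.8, 95.2 and 102 CPM in siZCC. The siNC libraries alone spanned the whole range, and none of the siZCC libraries lay outside it. The log2 fold change was -0.04 (SE 0.0394, adjusted p 0.492), and the interval from -8.31% to 2.88% was the widest on the negative side among the 9 genes. Neither sheddase therefore gave a difference beyond the spread between replicates.

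Among the gamma-secretase subunits, APH1A stood apart from the other 3. APH1A is the multipass membrane subunit that joins nicastrin in the early assembly of the complex. Its gene lies on chromosome 1 from 150265399 to 150269580 on the minus strand. Its levels were 139.9, 146 and 154 CPM in siNC and 156, 167 and 176 CPM in siZCC (lowest, median, highest). All 6 siZCC libraries were above all 6 siNC libraries; over all genes kept, the groups did not overlap in 9.74%. The means were 146 ± 4.66 and 167 ± 6.63 CPM (SD, n = 6 each). That is 0.19 on the log2 scale (SE 0.0314; adjusted p 4.10e-04 in edgeR's test), with an interval of 8.97% to 19.4%. By exact permutation of the library labels (two-sided), p was 0.00216, the lowest that this design allows, or 0.0222 adjusted over all genes kept, a threshold that 18.0% of genes passed. Tested against a minimum change of 1.2-fold, APH1A was not called (adjusted p 1).

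Nicastrin, the large glycoprotein that receives the stubs of cut substrates, is encoded by NCSTN (chromosome 1, 160343272 to 160358952, plus strand). It was measured at 125, 128 and 134 CPM in siNC and at 127, 131 and 133 CPM in siZCC. The siZCC values lay inside the siNC range, and the log2 fold change was 0.02 (SE 0.0259, adjusted p 0.713; interval -2.64% to 5.0%). COPA, on the other strand, shares 129 bases (3.09%) of the merged exons of NCSTN. It was higher in siZCC (log2 fold change 0.09, SE 0.0242, adjusted p 0.0128). PSEN2 (chromosome 1, 226870184 to 226896105, plus strand), a presenilin, was the least abundant member. It stood at 15.9, 17.5 and 18.1 CPM in siNC and at 15.7, 16.9 and 17.8 CPM in siZCC, with a log2 fold change of -0.02 (SE 0.0447, adjusted p 0.786; interval -7.68% to 5.21%).

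PSENEN (chromosome 19, 35745114 to 35747519, plus strand) encodes PEN-2, the smallest subunit, which is needed for the presenilin to be cut into its active form. It ranged over 18.1, 19.7 and 20.2 CPM in siNC and over 17.7, 18.9 and 22.2 CPM in siZCC. The siZCC libraries spread to both sides of the siNC range, siZCC replicate 6 being the highest of all 12. The log2 fold change was -0.0037 (SE 0.0493, adjusted p 0.968), with an interval of -7.20% to 7.20%. A transcript of the other strand, U2AF1L4, shares 332 bases of its exons and averaged below 4 CPM in both groups. AD000671.3 shares 425 bases (23.0%), AD000671.1, on the same strand, 285 (15.45%) and AD000671.2 173 (9.38%). None of these AD000671 genes had above 21 counts in a library. How reads in shared exons were counted is not stated.

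**Figure D2:**
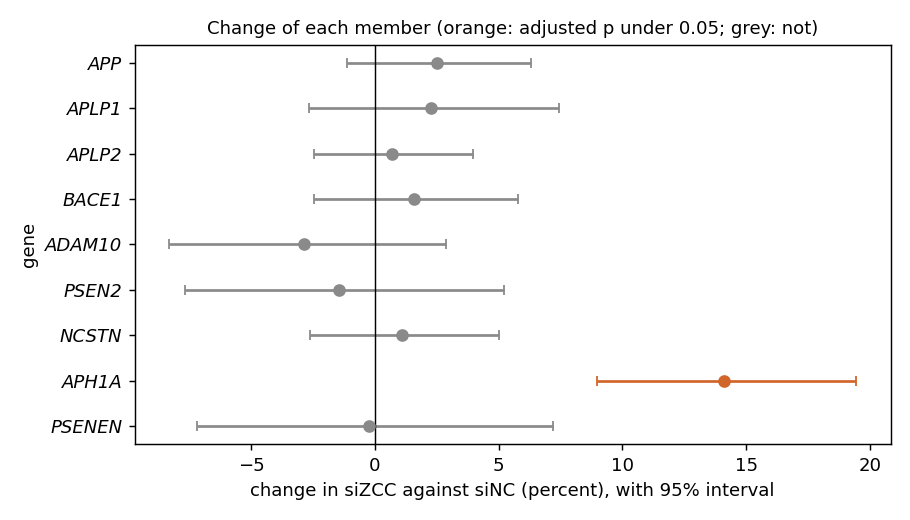
Change of each gene in siZCC against siNC in percent (horizontal axis), with the 95% interval from the fit over 12 libraries. The interval of APH1A runs from 8.97% to 19.4%, and those of the other 8 genes include 0.

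Ratios of counts within a library do not depend on how libraries are scaled, and they were used to compare subunits directly. The ratio of APH1A to PSEN2 had a geometric mean of 8.53 in siNC and 9.87 in siZCC, a difference of 0.21 in log2 with no overlap of the groups (exact permutation test, two-sided, p = 0.00216, or 0.00866 adjusted over the 8 ratios compared). APH1A to PSENEN went from 7.54 to 8.64, a difference of 0.20 in log2, again with no overlap (exact permutation p = 0.00216, adjusted 0.00866). APH1A to NCSTN went from 1.13 to 1.28, a difference of 0.17 in log2, and the lowest siZCC ratio of 0.30 in log2 fell just below the highest siNC ratio (exact permutation p = 0.00433, adjusted 0.0115). The test of these ratios was added after the levels had been seen. The ratios of APH1A to NCSTN and to PSENEN were not among those first planned. APH1A was higher relative to each of the 3 other subunits, without overlap of the groups in 2 of the 3 ratios. All 3 ratios rest on the same APH1A counts, so they restate its rise and are no separate support for it.

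The remaining 5 ratios did not pass the test. NCSTN to PSEN2 differed by 0.04 in log2 (exact permutation p = 0.437, adjusted 0.583) and PSENEN to PSEN2 by 0.01 (exact permutation p = 0.816, adjusted 0.933). BACE1 to ADAM10, the balance of the sheddases at the transcript level, had a geometric mean of 1.17 in siNC and 1.22 in siZCC, a difference of 0.06 in log2 (exact permutation p = 0.221, adjusted 0.353). APLP1 to APP differed by -0.0032 (exact permutation p = 0.933, adjusted 0.933). APLP2 to APP was the tightest ratio, with an SD of 0.0130 in siNC, and differed by -0.03 in log2 (exact permutation p = 0.0693, adjusted 0.139).

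**Figure D3:**
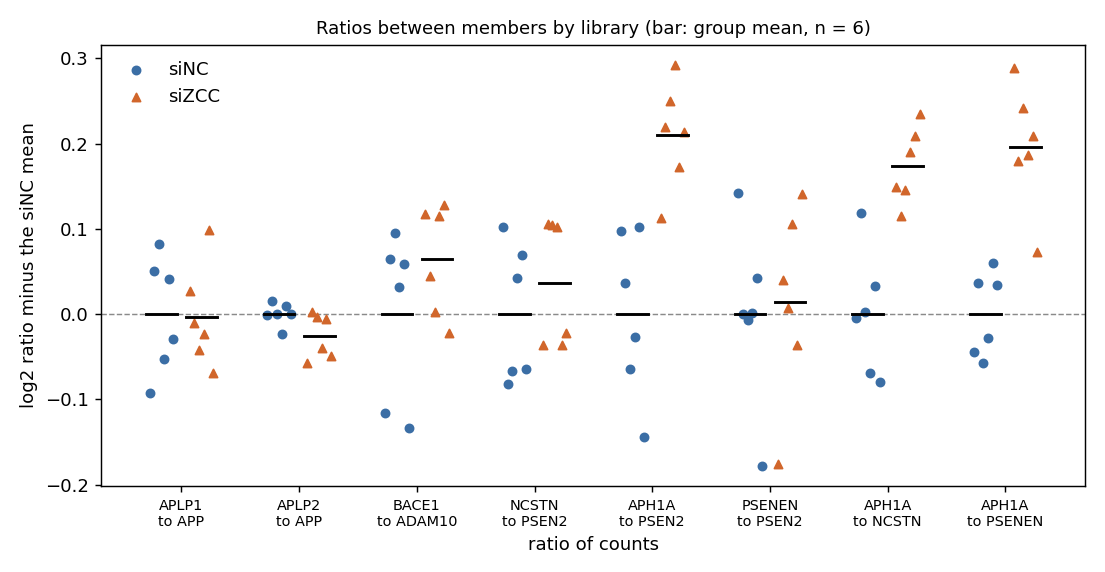
Log2 ratio of the counts of 2 members in each library, minus the mean of the 6 siNC libraries; circles are siNC, triangles siZCC, bars group means (n = 6 each). The 3 ratios with APH1A on top are higher in siZCC by 0.17 to 0.21, and the other 5 overlap around 0.

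Levels were compared between genes only per kilobase (kb) of merged exons of the gene model. In siNC, APP stood at 230.3 ± 3.87 CPM per kb (SD, n = 6), which placed it 56th among 23413 genes with a known length. APLP1 followed at 123 ± 5.09 and APLP2 at 89.6 ± 0.858 CPM per kb. The subunits APH1A, at 42.1 ± 1.34, and NCSTN, at 30.8 ± 0.802 CPM per kb, came next, and then the sheddase BACE1 at 15.9 ± 0.391 CPM per kb. The lowest levels were those of PSENEN at 10.5 ± 0.453, ADAM10 at 6.08 ± 0.347 and PSEN2 at 4.57 ± 0.265 CPM per kb (SD, n = 6 for each). Each gene in this order lay above the next in every siNC library. The order was the same when the longest transcript served as the length, although APLP1 and APLP2 were then nearly equal, at 179.8 and 179 CPM per kb. The merged exons of ADAM10, 16.2 kb, are the longest of the 9, which lowers its level on this scale. Exons shared with other genes, as in BACE1 and PSENEN, may also affect levels on this scale, which was not tested.

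How the members varied between replicates was described by Pearson's r of log2 CPM over the 12 libraries after each group's mean was subtracted. These values share libraries, depth and scaling, and no p is given. Over the 36 pairs the median was 0.15. The closest pairs were APP with APLP2 (r = 0.85) and APH1A with PSENEN (r = 0.77), while NCSTN followed APLP2 (r = 0.69) and APP (r = 0.67). The most opposed pair was APLP1 with ADAM10 (r = -0.82), a neuron-enriched gene and a widely expressed one. BACE1 went against PSENEN (r = -0.59) and had no r above 0.20 with any member. Of the 12625 genes that averaged 5 CPM or more, those nearest to APP by this measure were CHST14 (r = 0.89), KCTD21 (r = 0.87) and MFSD3 (r = 0.86).

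APH1A has close neighbours on chromosome 1, and their values were read next. Within 25 kb of its ends 5 further genes were kept, of which 3 rose and 0 fell, with 22.2% of all genes called in either direction. CA14 (150257159 to 150265078, plus strand), a membrane-bound carbonic anhydrase, ranged from 35.8 to 39.5 CPM (siNC) and from 45.4 to 61.9 CPM (siZCC). Its log2 fold change of 0.45 (SE 0.0537, adjusted p 2.11e-05) exceeded that of APH1A. C1orf54 (150268200 to 150280916, plus strand) overlaps the start of APH1A on the opposite strand. It rose from 19.8 ± 0.839 to 21.9 ± 0.722 CPM (SD, n = 6 each), by 0.15 on the log2 scale (SE 0.0360, adjusted p 0.00724).

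The C1orf54 gene model shares 490 bases, or 14.1%, of the merged exons of APH1A, and how the counting assigned reads there is not stated. CIART (150282543 to 150287093, plus strand), a repressor in the circadian clock, rose by 0.19 (SE 0.0582, adjusted p 0.0284). Leaving out siNC replicate 1, 5 or 6, or siZCC replicate 3 or 6, ended that call, with adjusted p up to 0.0623. MRPS21, the next gene along, had a log2 fold change of -0.03 (SE 0.0335, adjusted p 0.597), and the fifth gene was measured below 1 CPM. Around the other 8 members 22 neighbours were kept, of which 1 was higher and 1 lower. These neighbours were looked up after the rise of APH1A had been seen.

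**Figure D4:**
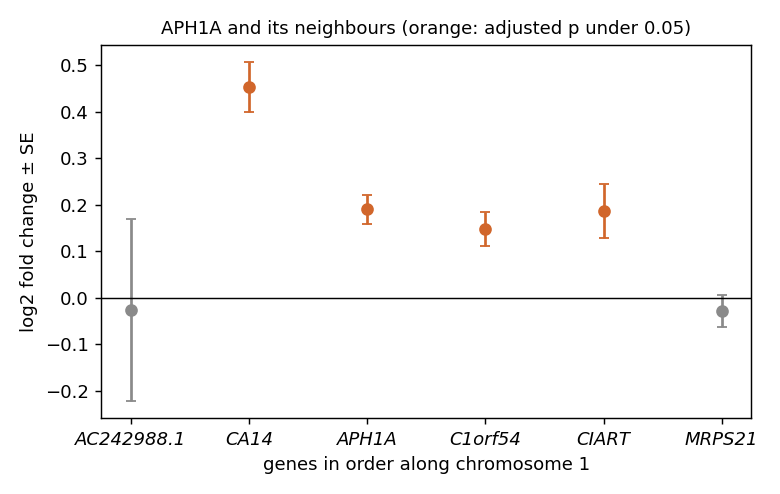
Log2 fold change with its SE for APH1A and the kept genes within 25 kb, in their order along chromosome 1; orange points passed an adjusted p of 0.05. CA14, APH1A, C1orf54 and CIART, which follow each other, were higher in siZCC by 0.15 to 0.45, and the outer 2 genes were near 0.

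Markers of other cell states moved between the same groups. Of 16 proliferation markers 0 were higher and 14 lower, beside 22.2% of all genes kept called in either direction, with a summed level of 1070 to 1187 CPM (siNC) and 845 to 979 CPM (siZCC). Of the 20 neuron markers 1 was higher and 7 lower, and of 12 astrocyte markers 5 were higher and 1 lower (summed 2266 to 2502 and 2348 to 2732 CPM). Of the 14 progenitor markers 3 were higher and 3 lower. The 10 mesenchymal markers had 1 higher and 4 lower (474 to 816 and 358 to 564 CPM). Their part in the rise of APH1A was not tested. The libraries also fell into 3 with high and 3 with low IL1B counts in each group, a split that the labels do not explain. APH1A rose by 0.18 (SE 0.0434, adjusted p 0.0290) among the high libraries and by 0.20 (SE 0.0462, adjusted p 0.0320) among the low ones.

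Genes that act around the 9 members were then counted by lists. Of 133 distinct genes kept in 8 lists, 27 were higher, 16 lower and 90 did not pass the test. That is 32.3%, beside 22.2% of all genes and 32.1% of genes as abundant as the members, and their median log2 fold change was 0.0054, beside -0.0016 over all genes. Here and below, the 32.1% is for genes at least as abundant as PSEN2, while the lists also hold some less abundant genes. The lists were chosen with earlier results of these data known.

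Other sheddases and the second APH1 subunit formed the first list. Of its 9 genes 2 were higher and 0 lower, or 22.2%, beside 22.2% of all genes, with a median of -0.08. BACE2, a homologue of BACE1, rose from 2.71 ± 0.182 to 3.34 ± 0.343 CPM (SD, n = 6 each), by 0.30 on the log2 scale (SE 0.0756, adjusted p 0.00844), and 5 of the 6 siZCC libraries lay above the siNC range. ADAM17, the sheddase of tumour necrosis factor that can also cut APP, rose by 0.13 (SE 0.0356, adjusted p 0.0149). Among the high IL1B libraries neither was called, with log2 fold changes of 0.15 for BACE2 (adjusted p 0.399) and 0.07 for ADAM17 (adjusted p 0.370), and the list count was 0. Without siZCC replicate 3 the adjusted p of ADAM17 was 0.0505 and the list count 1. APH1B, the alternative to APH1A in the complex, stood at 4.49 ± 0.295 and 4.22 ± 0.280 CPM (SD, n = 6 each), with a log2 fold change of -0.09 (SE 0.0627, adjusted p 0.360). ADAM9, another sheddase, had -0.08 (SE 0.0498, adjusted p 0.265).

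Of 11 genes that act on ADAM10, namely tetraspanins, convertases and inhibitors, 1 was higher and 1 lower, with a median of 0.01. The share called was 18.2%, beside 22.2% of all genes. TIMP3, a secreted inhibitor of ADAM and matrix proteases, stood at 267 to 296 CPM in siNC and at 349.9 to 379 CPM in siZCC. The groups were well apart, and the log2 fold change was 0.39 (SE 0.0308, adjusted p 5.66e-07). TSPAN17, a tetraspanin of the group that escorts ADAM10 to the cell surface, fell by 0.13 on the log2 scale (SE 0.0301, adjusted p 0.00624). TSPAN5, TSPAN14, TSPAN15 and TSPAN33, of the same group, had log2 fold changes of -0.04, 0.02, 0.01 and 0.12 and did not pass.

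Adaptors of the cytoplasmic tail of APP had 4 higher and 1 lower of 15 kept, with a median of 0.06. The share called was 33.3%, beside 22.2% of all genes and 32.1% of genes as abundant as the members. GULP1, an engulfment adaptor, rose from 27.0 ± 2.62 to 32.2 ± 1.31 CPM (SD, n = 6 each; log2 fold change 0.25, SE 0.0538, adjusted p 0.00305). APBB2, of the FE65 family, rose by 0.11 (SE 0.0353, adjusted p 0.0350), and KLC1, a light chain of the kinesin motor, fell by 0.09 on the log2 scale (SE 0.0281, adjusted p 0.0249). Both were near the threshold. The call of APBB2 was lost without any one of 9 of the 12 libraries (siNC 1, 3, 4 or 6, siZCC 1, 2, 3, 4 or 5), with p up to 0.0722. That of KLC1 was lost without siNC 1, siNC 4 or siZCC 4, with p up to 0.0609. The count for adaptors was 1 to 3 without siNC 1, 4 or 6, or siZCC 1, 4, 5 or 6. Also higher were MAPK8IP1 (log2 fold change 0.11, SE 0.0372, adjusted p 0.0357) and APBA3 (0.13, SE 0.0439, adjusted p 0.0434), again near the threshold. For MAPK8IP1, 5 of the 6 siZCC libraries lay above the siNC range, and for APBA3 3 did. The adaptors APBA1, APBA2 and APBB1 had log2 fold changes of 0.07, -0.01 and 0.02 and did not pass.

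Sorting and traffic genes had 3 higher and 5 lower of 25, with a median of 0.0085. The share called was 32%, beside 22.2% of all genes and 32.1% of genes as abundant as the members. SORL1, a receptor that returns APP from endosomes to the Golgi, gave the largest change of this list. It stood at 49.7, 60.2 and 70.6 CPM in siNC (lowest, median, highest) and at 83.4, 86.5 and 91.0 CPM in siZCC. The groups did not overlap, and the log2 fold change was 0.51 (SE 0.0616, adjusted p 2.58e-05). RTN3, a reticulon that binds BACE1, rose by 0.09 (SE 0.0239, adjusted p 0.0126). The related sorting receptor SORT1 went the other way, from 423 ± 27.3 to 349 ± 19.2 CPM (SD, n = 6 each), by -0.28 (SE 0.0437, adjusted p 2.80e-04). SNX1, a sorting nexin of the retromer pathway, fell by 0.18 on the log2 scale (SE 0.0284, adjusted p 2.68e-04). Of the retromer core genes, VPS29 fell by 0.14 on the log2 scale (SE 0.0351, adjusted p 0.0106), with 5 of 6 siZCC libraries below the siNC range. VPS35, VPS26A and VPS26B had log2 fold changes of -0.06, -0.03 and 0.05 and did not pass.

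Modulators of cleavage had 1 higher and 1 lower of 16 kept, or 12.5%, beside 22.2% of all genes, with a median of -0.04. ERLIN2, an endoplasmic reticulum protein found with gamma-secretase, rose by 0.12 (SE 0.0268, adjusted p 0.00395). IFITM3, an interferon-induced membrane protein that binds gamma-secretase, fell from 122 ± 3.33 to 99.8 ± 8.67 CPM (SD, n = 6 each; log2 fold change -0.29, SE 0.0465, adjusted p 2.81e-04). Of 17 peptidases listed for the degradation of amyloid-beta, 2 were higher and 3 lower, with a median of -0.04. The share called was 29.4%, beside 22.2% of all genes and 32.1% of genes at least as abundant as PSEN2. ACE, ECE2, DPP4, MME and MMP9 of this list were less abundant than PSEN2, so the last 2 shares are of unlike genes. MMP2, a matrix metalloprotease, fell from 38.8 ± 6.04 to 26.0 ± 2.41 CPM (SD, n = 6 each), by 0.57 on the log2 scale (SE 0.0883, adjusted p 2.29e-04). PREP, a cytosolic prolyl peptidase, fell by 0.1015 (SE 0.0293, adjusted p 0.0193). The place of PREP in this list is uncertain, and these data do not show that it cuts amyloid-beta. MME, or neprilysin, was also lower (log2 fold change -0.84, SE 0.259, adjusted p 0.0272), but it rested on only 8 to 41 counts a library, and its call was lost without siNC 1 or 5 or siZCC 4 or 5 (p up to 0.0673). The insulin-degrading enzyme IDE had -0.02 (SE 0.0403, adjusted p 0.722).

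The lysosomal cathepsins CTSD and CTSB rose by 0.11 (SE 0.0377, adjusted p 0.0423) and 0.08 (SE 0.0296, adjusted p 0.0487). The call of CTSD was lost without siNC 1, 2, 4, 5 or 6 or siZCC 1, 3, 4, 5 or 6, with p up to 0.0962. That of CTSB was lost without siNC 1, 2, 4, 5 or 6 or siZCC 1, 3, 4 or 6, with p up to 0.138. The count for these peptidases was 2 without siNC 1, and 3 without siNC 4 or 6, or siZCC 1, 3, 4 or 6.

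Other neural substrates of the secretases had the highest share of calls among the 8 lists. Of 33 kept, 12 were higher and 5 lower, or 51.5%, beside 22.2% of all genes and 32.1% of genes as abundant as the members, with a median of 0.03. Besides SORL1, which is also cut by the secretases, the smallest p among the rises was that of PTPRZ1, a receptor phosphatase of radial glia. It stood at 1117, 1408 and 1592 CPM in siNC and at 1726 to 1841 CPM in siZCC, with no overlap (log2 fold change 0.39, SE 0.0620, adjusted p 3.08e-04). Among the falls were the guidance receptor EPHA4, at 52.0 ± 3.71 and 40.6 ± 1.85 CPM (SD, n = 6 each; log2 fold change -0.36, SE 0.0452, adjusted p 3.60e-05), and the ligand EFNB2 (-0.38, SE 0.0612, adjusted p 3.53e-04). NOTCH1, the best known substrate of gamma-secretase besides APP, had 0.02 (SE 0.0418, adjusted p 0.777).

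Notch target genes are switched on by the fragment that gamma-secretase releases. Of 9 kept, 3 were higher and 0 lower, with a median of -0.03. The share of 33.3% is near the 32.1% of genes as abundant as the members, beside 22.2% of all genes. HEY2 stood at 53.9 to 58.2 CPM in siNC and at 64.7 to 74.5 CPM in siZCC (log2 fold change 0.29, SE 0.0338, adjusted p 1.90e-05). HES5 rose from 6.09 ± 0.686 to 7.80 ± 0.774 CPM (SD, n = 6 each; log2 fold change 0.35, SE 0.0790, adjusted p 0.00401). HES1 and HEY1, of the same family, had -0.06 (SE 0.0443, adjusted p 0.407) and -0.03 (SE 0.0493, adjusted p 0.718).

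**Figure D5:**
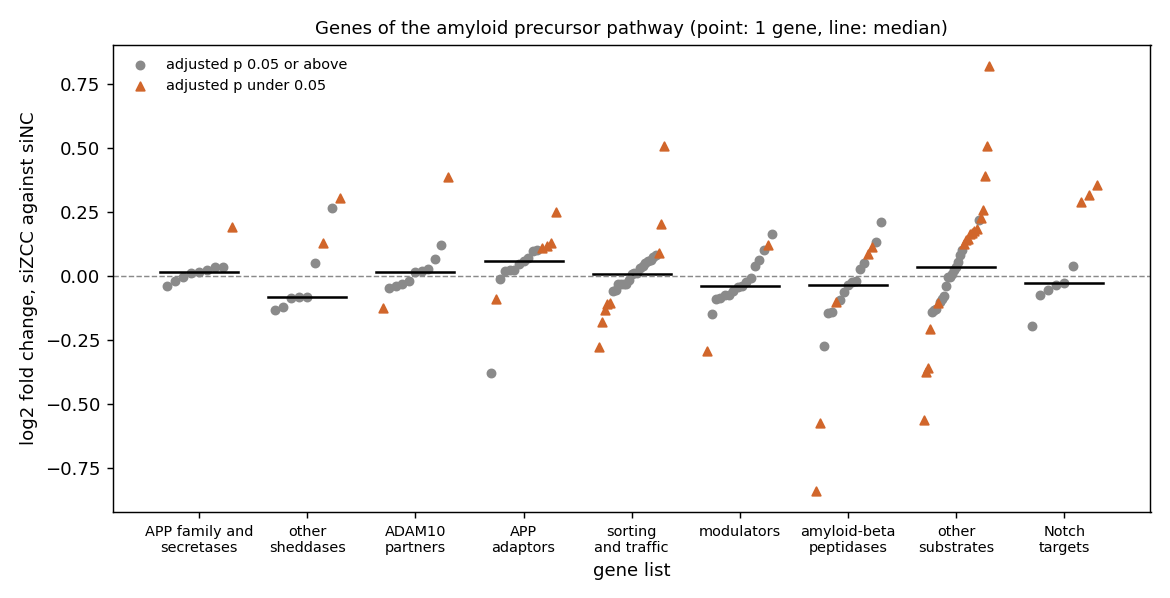
Log2 fold change of each gene kept in the APP family and secretase list and in 8 lists of genes around it; triangles passed an adjusted p of 0.05, and lines mark medians. The 9 members lie between -0.04 and 0.19, whereas single genes of the other lists reach from -0.84 to 0.82.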

How the data were processed

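The authors deposited raw counts, whole numbers, for each gene symbol in 12 libraries as 1 table. Per the submitters' processing notes, bcl2fastq 2.17, STAR 2.7.6a, featureCounts 2.0.1 and GRCh38 were used; roles, annotation and strand setting are not given in the sources used here. Groups and replicate numbers come from the titles. Nothing says that replicates were separate cultures, so p-values measure the spread between these samples.

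Counts were analysed in R 4.3.3 with edgeR 4.0.16: filterByExpr defaults (24671 genes kept), TMM factors, glmQLFit and glmQLFTest over all 12 libraries without covariates, Benjamini-Hochberg over all genes kept, threshold 0.05. The SE is the log2 fold change divided by the square root of F, and 95% intervals use the moderated degrees of freedom. Log2 CPM uses a prior count of 2. The biological coefficient of variation was 6.55%. The procedure was also run on counts simulated with libraries independent of each other, which cannot show whether the replicates here are independent. Exact permutation tests were adjusted over all genes, not over the members as first planned. No pair of libraries of a group agreed within sampling noise: chi-square over its degrees of freedom was 5.15 to 24.9.

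The members and lists were chosen with earlier results of these data known. Named genes are ZCCHC17, the members, the 2 smallest p-values per direction and list among genes called, and the 3 genes nearest to APP; others were chosen after their values were seen. Alternatives used DESeq2 1.42.0, limma 3.58.1, sva 3.50.0 and those listed in the closing section. Positions, lengths and GC content are from GENCODE v29 (GRCh38). Permutations used Python 3.11.15 with numpy 2.4.6.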

Additional observations from a re-analysis of the deposited data

Results flagged for a closer look

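In 108 groups of 6 (library totals, members, other named genes and ratios), 7 held a library whose gap to its neighbour was above Dixon's critical share of the range; chance gives about 1 in 20. None of the 9 members or their ratios was among them. The smallest siNC total was that of replicate 4, with 90755953 counts, where the next was 109973707 and the highest 120023356. siNC replicate 6 was lowest for HEY2 (53.9 CPM against 56.5 to 58.2) and for C1orf54 (18.1 CPM against 19.7 to 20.4). siNC replicate 3 was lowest for JAG1 (106 CPM against 123 to 129) and NOTCH2 (213 CPM against 258 to 282). siZCC replicate 6 was lowest for EPHA4 (36.9 CPM against 40.9 to 42.0), and siZCC replicate 1 for CIART (12.8 CPM against 14.7 to 15.0).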

How the results depend on the processing

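The call of APH1A held in 25 of 26 alternatives, with log2 fold changes of 0.17 to 0.21, and was lost only against a minimum of 1.2-fold, a stricter test by construction. None of the other 8 members was called in any of the 26, the smallest adjusted p being 0.0586 for APP under the correction for GC content and length; the sign turned in 1 for APLP2, PSEN2 and NCSTN each and in 9 for PSENEN. Against 1.2-fold, 349 genes, 0 members and 4 genes of the 8 lists passed, beside 5481, 1 and 43. Only 3 libraries per group entered the fits within the IL1B split, added after seeing the data: the high libraries gave 2043 genes and 25 list genes, the low ones 1602 and 19. Leaving out single libraries gave 4484 to 5626 genes, 34 to 44 list genes, 1 member each time, and -2.53 to -2.49 for ZCCHC17. The other fits, including DESeq2's Wald test, limma voom, other scalings and filters, a surrogate variable, thinning and GC correction, gave 4409 to 6498 genes and 29 to 52 list genes. List counts moved most for APP adaptors (5, but 3 with upper quartile factors, no filter or thinning and 2 with a surrogate variable) and peptidases (5, but 3 with upper quartile factors and 2 with a surrogate variable); sorting genes went from 8 to 5 with a surrogate variable, and modulators from 2 to 4 and Notch targets from 3 to 5 under GC correction; the cause was not tested. Of 36 named genes called, 30 lost their call against 1.2-fold, 14 among the high and 17 among the low IL1B libraries. With a surrogate variable 8 lost it (APBB2, CIART, CTSB, CTSD, LRP1, MME, PREP and VPS29). Every other fit of all 12 libraries ended at most 4. These 36 do not include APBA3, COPA and MAPK8IP1. Replicate numbers do not pair the libraries (correlations of -0.08 to 0.02; 0 of 12 libraries correlated best with their own number). A fit that took the replicate number as a block called 4902 genes, 1 member and 38 list genes, with 2 adaptors and 3 peptidases; KLC1, CTSD and CTSB lost their calls. Thinning to the smallest total left 1 member called. Since thinning only removes counts, it cannot show whether more depth would have led to further calls.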

Other observations

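Further substrates of the secretases were read after their values had been seen. SEZ6L, a neuronal BACE1 substrate, stood at 10.6 to 17.4 CPM in siNC and at 18.2 to 29.7 CPM in siZCC, a log2 fold change of 0.82 (SE 0.134, adjusted p 3.70e-04), while its relatives SEZ6 and SEZ6L2 had 0.14 (SE 0.0433, adjusted p 0.0251) and -0.0043 (SE 0.0365, adjusted p 0.951) in edgeR's test. The call of SEZ6 was lost without siNC 1, 3 or 6 or siZCC 1, 2 or 5 (p up to 0.0571). Of the Notch pathway, the ligand JAG1 rose by 0.25 (SE 0.0412, adjusted p 3.53e-04) and the receptor NOTCH2 by 0.23 (SE 0.0521, adjusted p 0.00481), each higher in all 6 siZCC libraries than in any of the siNC ones. LRP1, an endocytic receptor for APP and many ligands, rose from 859.97 ± 56.5 to 972 ± 46.7 CPM (SD, n = 6 each). Adhesion molecules went the other way: CDH2, the N-cadherin that ADAM10 cuts, fell from 372 ± 23.3 to 322 ± 9.58 CPM, and CD44 from 183 ± 31.2 to 124 ± 18.5 CPM (SD, n = 6 each).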
